A study of Mus musculus with 8 samples.

Results

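The genes described here are 10 that make, recycle or break down glutathione or belong to the glutathione peroxidase family. They are *Gclc*, *Gclm*, *Gss*, *Gsr*, *Ggct*, *Gpx1*, *Gpx3*, *Gpx4*, *Gpx7* and *Gpx8*. They were found by symbol among the 32390 rows of a table of RNA-seq counts, in which 0 of the 10 share a symbol with another row. All 10 were among the 12725 rows with enough counts to be tested. The gastrocnemius, a calf muscle, was taken from 4 controls of the genotype *Nox4* fl/fl and from 4 mice of the genotype *Mck*-Cre;*Nox4* fl/fl, called NOX4-deficient. *Nox4* encodes an NADPH oxidase that makes hydrogen peroxide, and the comparison asks how its loss from muscle alters defense against oxidants in aged mice. Both groups were chow-fed males that carry the floxed *Nox4* alleles, labelled as 21 months old and as 1 batch. The *Mck* promoter drives Cre mainly in muscle fibers, so that fibroblasts, vessels, blood and other cells of the muscle keep *Nox4*.

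Glutathione is a tripeptide of glutamate, cysteine and glycine. Glutamate-cysteine ligase, which has a catalytic subunit (GCLC) and a modifier subunit (GCLM) that makes it more active, joins the first pair of amino acids and limits the rate of synthesis, and glutathione synthetase (GSS) adds glycine. Glutathione peroxidases such as GPX1 and GPX4 use glutathione to reduce hydrogen peroxide or lipid peroxides, and glutathione reductase (GSR) regenerates the oxidized product with NADPH. *Gclc*, *Gclm* and *Gsr* are textbook targets of the transcription factor NFE2L2, which binds the antioxidant response element.

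The 5 peroxidases fall into 2 kinds by the residue in their active site, and the deposited symbols were matched to GENCODE M21 transcripts to show it. The 30-base windows below are coding sequence, 5′ to 3′, with the active-site codon in capitals. In *Gpx1*, *Gpx3* and *Gpx4* this codon is TGA, read as selenocysteine, so that the protein is made only where selenium is supplied. In *Gpx7* and *Gpx8* it is TGT or TGC, which encode cysteine.
Gpx1 (codon 47 of 201): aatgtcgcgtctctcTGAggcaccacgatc
Gpx3 (codon 73 of 226): aacgtagccagctacTGAggtctgacagac
Gpx4 (codon 129 of 253): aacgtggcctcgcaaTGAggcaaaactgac
Gpx7 (codon 56 of 186): aacgtagctagcgaaTGTggcttcacagac
Gpx8 (codon 79 of 209): aacgtggctagtgacTGCcgcttcacagac

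Because *Gclm* had the largest difference among the 10 genes, its promoter is shown. That of *Ggct* is added as the other searched window with the core of the antioxidant response element. *Gclc* and *Gsr* had no window, so their promoters were not searched. The windows run from 250 bases before to 50 after the RefSeq start on GRCm38.p6, each in the direction of its gene, and capitals mark matches to TGACNNNGC on either strand. The *Gclm* window is chr3:122245307-122245606 on the plus strand, and the *Ggct* window is chr6:54992818-54993117 on the minus strand.
Gclm: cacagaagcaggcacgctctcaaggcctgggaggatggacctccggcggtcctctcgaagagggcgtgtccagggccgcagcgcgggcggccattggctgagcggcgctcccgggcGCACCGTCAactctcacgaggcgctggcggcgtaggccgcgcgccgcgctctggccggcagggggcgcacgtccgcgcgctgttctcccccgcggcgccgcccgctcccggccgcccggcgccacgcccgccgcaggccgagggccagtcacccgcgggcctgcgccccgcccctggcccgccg
Ggct: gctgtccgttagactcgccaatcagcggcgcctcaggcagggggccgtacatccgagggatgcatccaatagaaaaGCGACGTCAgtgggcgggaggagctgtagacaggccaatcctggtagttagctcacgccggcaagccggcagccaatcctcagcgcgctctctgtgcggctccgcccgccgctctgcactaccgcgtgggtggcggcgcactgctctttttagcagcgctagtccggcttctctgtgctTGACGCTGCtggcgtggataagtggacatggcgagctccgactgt

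These were 2 of the 11 windows of the 8 genes with an entry, where 12.4% of all 32851 windows held the same letters. The AP-1 site TGANTCA, searched on both strands, was in 0 of the 11 windows and in 7.81% of all windows. The windows of *Gss*, *Gpx1*, *Gpx3*, *Gpx4*, *Gpx7* and *Gpx8* held neither motif. A match of letters describes the window only, and elements farther from the start were not searched.

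The libraries held between 16350548 and 19804661 counts, with medians of 19152318 in controls and 18177348 in NOX4-deficient mice. For *Nox4* itself the controls held 85, 48, 35 and 70 counts and the NOX4-deficient libraries 29, 43, 42 and 37, so that the groups overlapped and its count does not separate the genotypes (log2 fold change -0.65, adjusted p = 0.207 by edgeR's quasi-likelihood test). *Nfe2l2* was lower, at 44.9 ± 8.22 CPM (counts scaled to the effective library size) against 70.3 ± 0.835 in controls (SD, n = 4; adjusted p = 0.0112 by the same test). Defining markers of muscle fibers (*Acta1*, *Ckm*, *Ttn*, *Mb*, *Des* and *Pvalb*) summed to between 56669 and 77304 CPM in every library. In bulk muscle, fewer cells of a type and less RNA per cell cannot be told apart.

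In NOX4-deficient muscle the transcripts of both subunits of glutamate-cysteine ligase were lower, whereas *Gss* and all 5 peroxidases did not pass the test. *Gclm* fell by 1.30 on the log2 scale and *Gclc* fell by 0.63. Calls needed an adjusted p under 0.05 together with a log2 fold change beyond 0.5 in either direction, and 2 of the 10 genes met both, each lower. Over all rows tested 6.16% were called, 3.48% lower and 2.68% higher, and 7.75% had an adjusted p under 0.05 at any fold change. With 10 genes, 2 calls are a small count to set against such shares. The median log2 fold change of the 10 genes was -0.08 against 0.01 over all rows, and 5 of the 10 were below 0 where 47.7% of all rows were. The groups did not overlap for 3 genes that were lower (*Gclc*, *Gclm* and *Gsr*) and for 1 that was higher (*Gpx8*). Such separation was seen in 16.2% of all rows, 8.97% lower and 7.2% higher.

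*Gclm*, the modifier subunit, was at 34.5, 42.2, 46.2 and 59.1 CPM in control replicates 1 to 4. In NOX4-deficient replicates 1 to 4 it was at 16.9, 18.9, 19.0 and 19.2 CPM. The highest NOX4-deficient library was thus well below the lowest control, and the NOX4-deficient libraries lay close together while the controls spread widely (coefficient of variation 5.75% against 22.6%). The means were 18.5 ± 1.06 against 45.5 ± 10.3 CPM (SD, n = 4), and the log2 fold change was -1.30 (SE 0.15, 95% interval -1.62 to -0.97, adjusted p = 5.96e-04 by edgeR's quasi-likelihood test, adjusted after Benjamini and Hochberg). This is a change of -59.4% (95% interval -67.5% to -49.1%), and *Gclm* ranked 26 by p among the 12725 rows. *Gm17494*, annotated opposite *Gclm*, had at most 5 counts in any library.

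*Gclc*, the catalytic subunit, was at 22.1, 22.5, 19.7 and 26.3 CPM in control replicates 1 to 4. In the NOX4-deficient replicates it was at 13.8, 17.9, 13.3 and 13.5 CPM. Replicate 2 was the highest of these and came nearest to the controls, of which replicate 3 was the lowest, but the groups did not overlap. The means were 14.6 ± 2.15 against 22.6 ± 2.74 CPM (SD, n = 4), and the log2 fold change was -0.63 (SE 0.13, 95% interval -0.92 to -0.34, adjusted p = 0.0161 by edgeR's quasi-likelihood test). The change was -35.4%, and it ranked 382 by p.

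**Figure D1:**
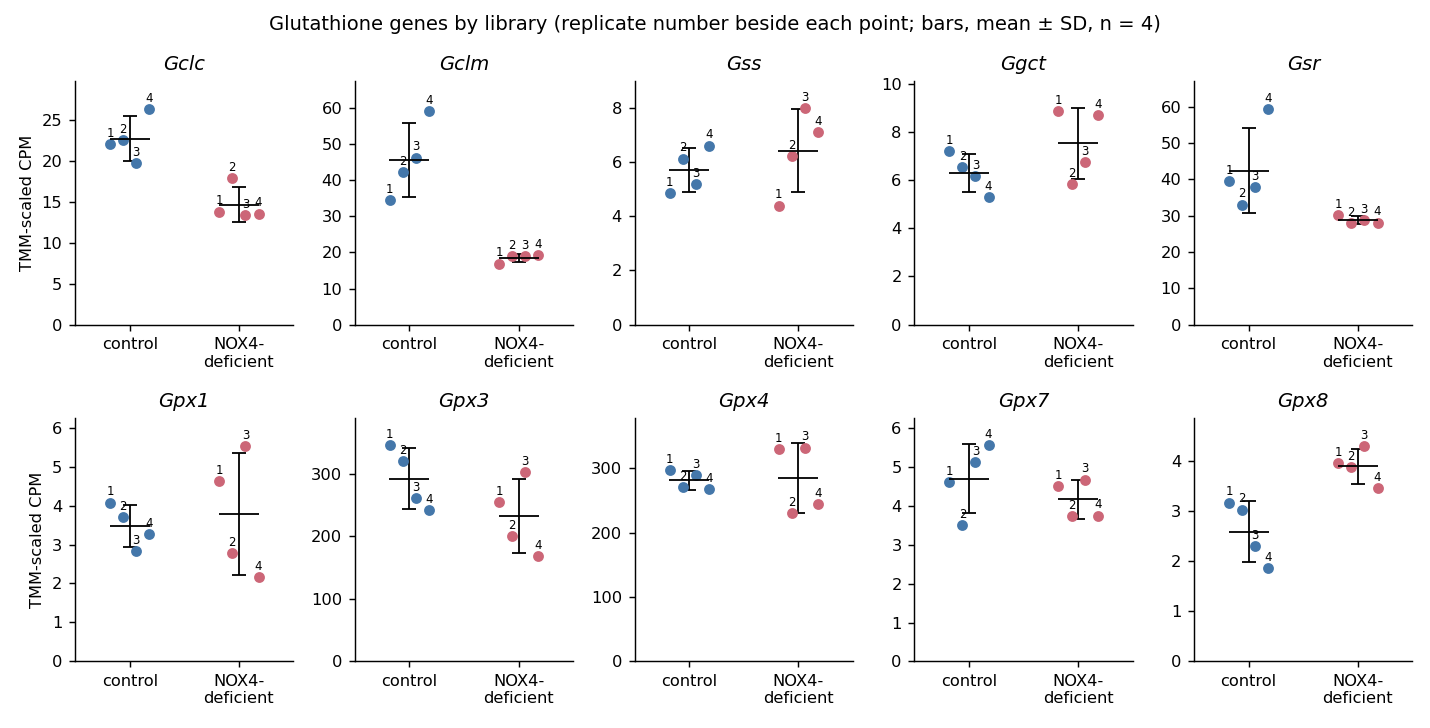
CPM scaled by edgeR's TMM method (y axis, from 0) of each of the 10 genes in the 4 control (blue) and 4 NOX4-deficient (red) libraries, with the replicate number beside each point and bars at mean ± SD. All NOX4-deficient points lie below all control points for Gclc, Gclm and Gsr and above them for Gpx8. In NOX4-deficient muscle all 5 peroxidases are higher in replicates 1 and 3 than in replicates 2 and 4. Relative to the mean, their spread there is widest for Gpx1.

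The 2 subunits did not fall by the same amount. A ratio of 2 genes within a library does not depend on how libraries are scaled, and *Gclc* had 0.639, 0.534, 0.427 and 0.445 counts per *Gclm* count in control replicates 1 to 4. In the NOX4-deficient replicates the ratio was 0.815, 0.944, 0.704 and 0.707. Every NOX4-deficient ratio was above every control ratio, with mean log2 ratios of -0.35 ± 0.20 against -0.99 ± 0.27 (SD, n = 4). The log2 difference was 0.64 (exact two-sided permutation test, p = 0.0286, the smallest that the 70 splits of 4 against 4 can give). Without any 1 NOX4-deficient library the exact permutation p was 0.0571. The ratio follows from the values that gave both calls and adds no separate evidence that either gene fell.

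**Figure D2:**
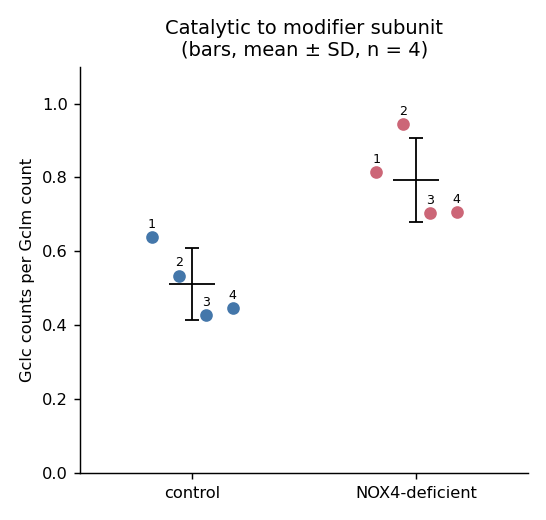
Counts of Gclc per count of Gclm (y axis, from 0, no unit) in the 4 control and 4 NOX4-deficient libraries, with the replicate number beside each point and bars at mean ± SD. The control ratios lie between 0.427 and 0.639 and the NOX4-deficient ratios between 0.704 and 0.944.

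*Gss*, the enzyme of the second step of synthesis, was at 4.85, 6.12, 5.19 and 6.60 CPM in controls and 4.39, 6.22, 7.99 and 7.09 CPM in NOX4-deficient muscle. The lowest and the highest library were both NOX4-deficient, and the groups overlapped. The log2 fold change was 0.17 (SE 0.20, 95% interval -0.25 to 0.60, adjusted p = 0.646 by edgeR's quasi-likelihood test). The interval leaves out a fall as large as that of *Gclm* or *Gclc*. *Gss* lies opposite *Acss2*, which had 374 to 576 counts against 73 to 152 for *Gss*, and without strand the reads of the 2 genes cannot be told apart where they overlap. *Acss2* itself had a log2 fold change of -0.09 (adjusted p = 0.805, same test).

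*Gsr*, which returns oxidized glutathione to its reduced form, was at 39.4, 33.0, 37.9 and 59.4 CPM in controls. It was at 30.3, 28.0, 28.9 and 28.1 CPM in the NOX4-deficient replicates. The groups did not overlap, but the gap from the lowest control to the highest NOX4-deficient library was small, and control replicate 4 stood above the other 3 controls. As with *Gclm*, the NOX4-deficient libraries were tight (coefficient of variation 3.67% against 27.4%). The log2 fold change was -0.56 (SE 0.16, 95% interval -0.90 to -0.21), and the adjusted p of 0.0509 by edgeR's quasi-likelihood test just missed the threshold. Without control replicate 4 the log2 fold change of *Gsr* was -0.35 (adjusted p = 0.0939 by the same test), and without control replicate 2 it was -0.66 (adjusted p = 0.0367). DESeq2 and pydeseq2 called *Gsr* on all 8 libraries (adjusted p = 0.0170 and 0.0190).

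*Ggct* encodes γ-glutamylcyclotransferase, which acts on γ-glutamyl amino acids released in the turnover of glutathione. It was at 7.19, 6.54, 6.15 and 5.30 CPM in controls and 8.84, 5.82, 6.73 and 8.68 CPM in NOX4-deficient muscle. NOX4-deficient replicates 1 and 4 were above all controls and replicates 2 and 3 within their range. The log2 fold change was 0.25 (SE 0.18, 95% interval -0.13 to 0.63, adjusted p = 0.425 by edgeR's quasi-likelihood test). *Ggct* thus did not pass the test.

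The log2 fold changes can be compared between genes in the plot of fold changes with single libraries left out.

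**Figure D3:**
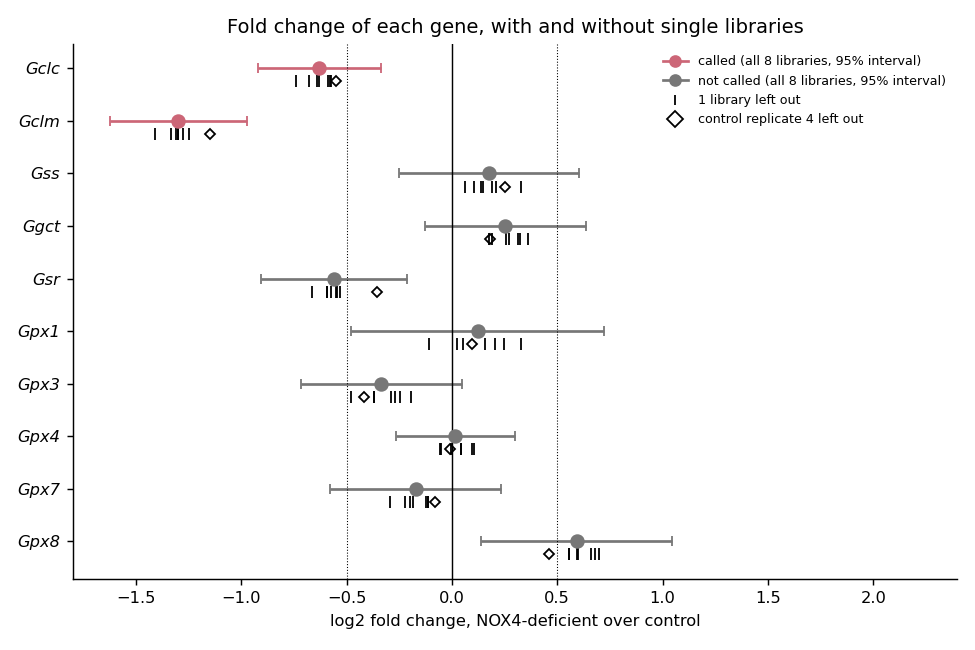
log2 fold change of each gene, NOX4-deficient over control (x axis), with its 95% interval from edgeR's fit to all 8 libraries, and below it the values with 1 library left out (ticks, with a diamond where control replicate 4 is left out). Dotted lines mark log2 fold changes of -0.5 and 0.5. Gclm stays between -1.41 and -1.15 and Gclc between -0.74 and -0.55, whereas Gsr ranges from -0.66 to -0.35.

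Among the peroxidases, 0 of 5 were called by edgeR's quasi-likelihood test, by DESeq2 or by pydeseq2, 1 (*Gpx8*) had an unadjusted p under 0.05, and their median log2 fold change was 0.02. They differed widely in level. Per kilobase of exon (merged GENCODE M21 exons, a length that may differ from the one used in counting), the mean control level was 221 CPM for *Gpx4* and 184 CPM for *Gpx3*, and the ranges of these 2 overlapped. Next came *Gsr* at 15.9 CPM per kilobase, set apart from its neighbors on both sides, then *Gclm* at 8.14 and *Gclc* at 6.62, whose control ranges overlapped. *Gpx7* at 3.65, *Gpx1* at 3.24, *Gss* at 2.90, *Gpx8* at 2.48 and *Ggct* at 1.59 CPM per kilobase followed, each overlapping the next. *Gpx3* and *Gpx4* together made up 97.1% to 97.9% of the summed level per length of the 5 peroxidases in each library. How reads were assigned to *Gpx1* is not given in the sources used here, and its level, its place in this order and its part of the sum rest on the counts as deposited.

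*Gpx4*, which reduces lipid peroxides within membranes, was at 297, 270.5, 289 and 268 CPM in controls. It was at 329.7, 230.1, 332 and 245 CPM in NOX4-deficient replicates 1 to 4. Replicates 1 and 3 were above every control and replicates 2 and 4 below every control, so that the means were nearly equal while the spread was larger in NOX4-deficient muscle (284 ± 54.3 against 281 ± 14.2 CPM; SD, n = 4). The log2 fold change was 0.02 (SE 0.13, 95% interval -0.27 to 0.30, adjusted p = 0.963 by edgeR's quasi-likelihood test).

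*Gpx3*, a secreted peroxidase best known from plasma, was at 346, 321, 261 and 243 CPM in controls and 255, 200.5, 303 and 169 CPM in NOX4-deficient muscle. Here too NOX4-deficient replicates 1 and 3 were above replicates 2 and 4, and 2 of the 4 lay within the control range. The log2 fold change was -0.34 (SE 0.18, 95% interval -0.72 to 0.05, adjusted p = 0.281 by edgeR's quasi-likelihood test). Its share of the summed peroxidase level per length was 38.1% ± 2.84 against 44.2% ± 3.67 in controls, and that of *Gpx4* was 59.1% ± 2.92 against 53.6% ± 3.59 (SD, n = 4), with overlapping groups for both.

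*Gpx1*, the cytosolic and mitochondrial peroxidase that reduces hydrogen peroxide, had few reads in these libraries. It had 68, 72, 53 and 63 counts in controls and 77, 55, 105 and 37 in NOX4-deficient muscle, or 3.47 ± 0.536 and 3.78 ± 1.56 CPM (SD, n = 4). NOX4-deficient replicate 3 was the highest and replicate 4 the lowest of all 8 libraries, and the coefficient of variation was 41.4% against 15.4% in controls. The log2 fold change of 0.12 (SE 0.28, 95% interval -0.48 to 0.72, adjusted p = 0.839 by edgeR's quasi-likelihood test) thus has a wide interval that spans both signs.

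The 3 selenocysteine peroxidases thus shared an order in NOX4-deficient muscle, replicates 1 and 3 over replicates 2 and 4, that the genotype does not describe. *Gpx7*, *Gpx8* and *Gsr*, among the 10 genes, took the same order over a narrower range, and *Gclc*, *Gclm*, *Gss* and *Ggct* did not. Against controls of the same kind of number, *Gpx4* differed by 0.18 in odd and -0.18 in even replicates on the log2 scale, *Gpx3* by -0.11 and -0.60, and *Gpx1* by 0.57 and -0.50, with 2 libraries on each side and no test. For *Gclm* the values were -1.16 and -1.39 and for *Gclc* -0.62 and -0.65. Their groups do not overlap, so any such split must be lower on either side and adds no support. The split also follows the order seen in these same libraries. The order was not particular to these genes, since 26.1% of all rows tested had replicates 1 and 3 both above replicates 2 and 4. It was taken by 8 of 15 other selenoproteins tested (*Selenow* but not *Selenot* or *Txnrd1*) and by 3 of 6 muscle fiber markers, *Acta1* and *Pvalb* among them. The same held for 4 of 9 fast fiber and 0 of 7 slow fiber markers. Of other cells, 3 of 6 macrophage and leukocyte, 2 of 6 adipocyte and 1 of 6 endothelial markers took it. So did 1 of 9 fibroblast and tendon, 1 of 3 satellite cell, 0 of 4 smooth muscle and 0 of 3 Schwann cell markers. All 3 red cell markers in the table took it, with *Hba-a1*, a hemoglobin chain, at 48.1, 24.8, 40.1 and 20.8 CPM against 13.4 to 15.8 CPM in controls. These markers (*Hba-a1*, *Hbb-bs* and *Alas2*) summed to 72.3 to 159 CPM in NOX4-deficient and 47.6 to 52.7 CPM in control libraries. *Hba-a1* rose by 1.24 and *Hbb-bs* by 1.00 on the log2 scale (adjusted p = 0.00978 and 0.0153 by edgeR's quasi-likelihood test). The part of blood, of fiber type or of any other difference between these libraries in the levels of *Gpx1*, *Gpx3* and *Gpx4* was not tested.

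**Figure D4:**
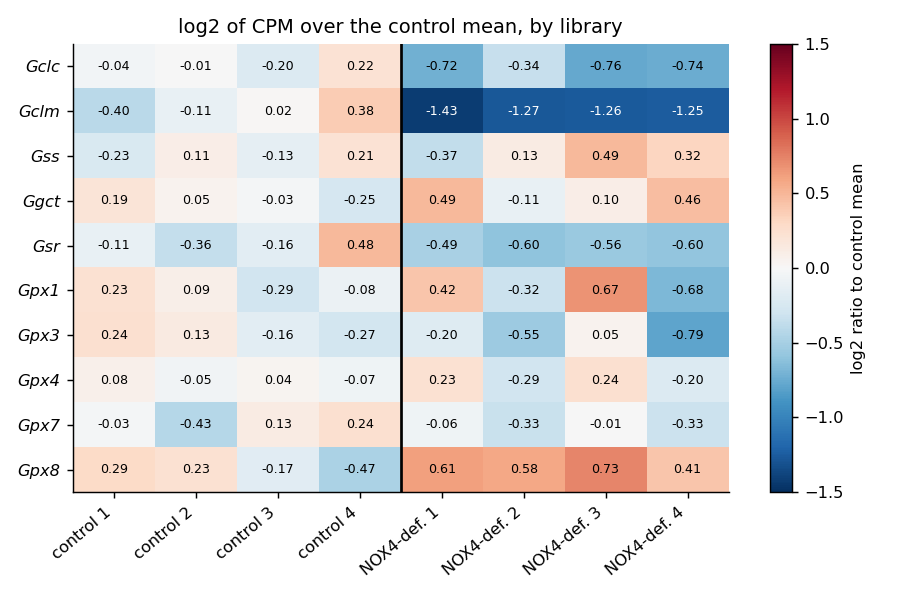
log2 of the CPM of each gene in each library over its control mean (color and printed value), with the 4 controls left and the 4 NOX4-deficient libraries right of the line. Gclm ranges from -1.43 to -1.25 in the NOX4-deficient libraries, and Gpx1, Gpx3 and Gpx4 are higher in NOX4-deficient libraries 1 and 3 than in 2 and 4.

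*Gpx7* and *Gpx8*, the cysteine peroxidases of the endoplasmic reticulum, differed less between NOX4-deficient libraries than *Gpx1*, *Gpx3* and *Gpx4*. Their coefficients of variation were 11.8% and 8.95% against 19.1% to 41.4%. Among controls it was the other way, at 19.0% and 23.8% against 5.05% to 16.6%. *Gpx8* was at 3.18, 3.04, 2.30 and 1.87 CPM in controls and at 3.97, 3.89, 4.31 and 3.46 CPM in NOX4-deficient muscle. Every NOX4-deficient library was above every control, yet the log2 fold change of 0.59 (SE 0.21, 95% interval 0.14 to 1.05) had an adjusted p of 0.109 by edgeR's quasi-likelihood test and was not called. These values rest on 36 to 82 counts a library, and *Cdc20b*, annotated opposite *Gpx8*, had 0 counts in every library. Its share of the summed peroxidase level per length was 1.00% ± 0.146 against 0.593% ± 0.0953 (SD, n = 4). *Gpx7* was at 4.61, 3.50, 5.14 and 5.56 CPM in controls and 4.51, 3.74, 4.68 and 3.75 CPM in NOX4-deficient muscle, with overlapping groups. Its log2 fold change was -0.17 (SE 0.19, 95% interval -0.58 to 0.23, adjusted p = 0.632 by the same test).

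The level of *Gpx8* can be set beside markers of other cells and of slow fibers. The fibroblast and tendon markers (9 genes, *Col1a1*, *Dcn* and *Tnmd* among them) summed to 424 to 732 CPM in controls and 441 to 716 CPM in NOX4-deficient muscle, with 7 of 9 above 0, a median log2 fold change of 0.61 and 0 called by edgeR's quasi-likelihood test (3 had an unadjusted p under 0.05, and DESeq2 called 1 and pydeseq2 0). The 6 macrophage and leukocyte markers, *Ptprc* and *Csf1r* among them, summed to 11.1 to 29.2 CPM in controls and 7.15 to 18.1 CPM in NOX4-deficient muscle, all 6 below 0 and 0 called by any of the 3 tools (2 had an unadjusted p under 0.05). The 6 adipocyte markers, *Adipoq* and *Plin1* among them, summed to 14.6 to 80.8 CPM in controls and 20.3 to 74.3 CPM in NOX4-deficient muscle. Of these, 5 were above 0, with a median log2 fold change of 0.59, 0 called by any of these tools and 0 with an unadjusted p under 0.05. The 7 slow fiber markers, *Myh7* and *Tnni1* among them, summed to 294 to 639 CPM in controls and 386 to 1155 CPM in NOX4-deficient muscle, all 7 above 0 with a median log2 fold change of 0.66, 0 called by any of these tools and 0 with an unadjusted p under 0.05. The 3 Schwann cell markers summed to 22.8 to 35.0 CPM in controls and 29.7 to 71.7 CPM in NOX4-deficient muscle, all 3 above 0 with a median of 0.53, of which edgeR called 0 and DESeq2 and pydeseq2 each called 1 (1 had an unadjusted p under 0.05 by edgeR). The part of such cells or fibers in the level of *Gpx8* or of any other gene here was not tested.

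The genes nearest to each ligase subunit were not the other subunit. Over the 8 samples, likeness was taken as the root mean square difference of log2 CPM, each gene centered on its control mean, as a description without a test. For *Gclm* the nearest rows were *Ank3* (difference 0.172), *Retreg1* (0.179) and *Ripor2* (0.195), whose log2 fold changes were -1.12, -1.40 and -1.14, and *Gclc* came 298th and *Gsr* 499th. For *Gclc* they were *Kri1* (0.107), *Ece1* (0.109) and *Il6st* (0.111), with log2 fold changes of -0.53, -0.67 and -0.62, and *Gsr* came 331st and *Gclm* 5105th. The measure includes the size of the difference between genotypes, so that it sets *Gclm* apart from the smaller fall of *Gclc*.

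Around these 10 genes, 71 others were listed by role in 6 groups, 59 of which were tested. Of these 59, 4 were lower and 2 higher by the same call rule, where 3.48% of all rows were lower and 2.68% higher, with a median log2 fold change of -0.01. Leaving out 1 library gave 2 to 4 lower genes (2 without NOX4-deficient replicate 3 or 4) and 0 or 1 higher (0 without control replicate 1). The amino acid supply list (17 tested of 19) held 2 lower and 2 higher genes. *Slc38a2*, a carrier of small neutral amino acids, was at 244 to 302 CPM in controls and 74.8 to 173 CPM in NOX4-deficient muscle, and its log2 fold change was -1.20 (SE 0.20, adjusted p = 0.00563 by edgeR's quasi-likelihood test). *Ahcy*, which turns S-adenosylhomocysteine into homocysteine on the way to cysteine, fell by 0.64 (adjusted p = 0.0308, same test), from 44.5 ± 11.4 to 28.5 ± 3.29 CPM (SD, n = 4). *Mat2a*, which makes S-adenosylmethionine from methionine, rose by 0.52, from 132 ± 16.6 to 189 ± 15.4 CPM (adjusted p = 0.0165). *Psph*, of the last step of serine synthesis, rose by 0.59, from 7.44 ± 1.45 to 11.2 ± 0.293 CPM (adjusted p = 0.0361). Both of these genes had groups that did not overlap. *Got1*, an aminotransferase that makes glutamate, did not overlap either, at 320 ± 36.0 CPM in controls and 246 ± 38.5 CPM in NOX4-deficient muscle, but was not called (adjusted p = 0.0974).

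Transcripts of *Slc7a11* and of *Cbs*, at the entry to transsulfuration, were close to absent in every library. Other carriers of the amino acid list were present. *Slc3a2* was at 33.2 CPM in controls and 26.7 CPM in NOX4-deficient muscle. *Slc1a1* was at 5.70 and 4.42 CPM, with groups that did not overlap, and neither of these carriers was called. *Slc7a11*, the cystine carrier, had 20 counts over all 8 libraries and *Cbs*, cystathionine β-synthase, had 12, so that neither was tested. *Cth*, the next enzyme of transsulfuration, was at 2.33 CPM in controls and 1.96 CPM in NOX4-deficient muscle and did not pass the test (adjusted p = 0.637, edgeR's quasi-likelihood test).

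In the glutathione breakdown list (10 tested of 12), *Dpep1* was the 1 called gene. It encodes a dipeptidase that cleaves cysteinylglycine and was at 13.5 to 22.7 CPM in controls and 9.72 to 12.2 CPM in NOX4-deficient muscle (log2 fold change -0.70, SE 0.16, adjusted p = 0.0212 by edgeR's quasi-likelihood test). *Chac1*, which cleaves glutathione in the cytosol, spread widely within both groups, at 39.4 to 162 CPM in controls and 19.2 to 106 CPM in NOX4-deficient muscle (log2 fold change -0.88, SE 0.65, adjusted p = 0.475). *Ggt1*, the γ-glutamyl transferase of many tissues, had 1 count in all.

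The remaining lists held 1 call. *Gpx2*, *Gpx5* and *Gpx6* had 0 counts in every library. Of the 7 tested genes of glutathione transport and mitochondrial import, 0 were called by edgeR's quasi-likelihood test, DESeq2 or pydeseq2 and 2 had an unadjusted p under 0.05. Of the 10 tested genes of selenoprotein synthesis, 0 were called by any of these tools and 4 had an unadjusted p under 0.05. Among 15 tested selenoproteins outside the peroxidases, *Txnrd1* was called. It encodes cytosolic thioredoxin reductase, also a textbook target of NFE2L2, and was at 143, 178, 149 and 214 CPM in controls and 76.5, 89.5, 86.1 and 93.8 CPM in NOX4-deficient muscle. No library of one genotype reached the range of the other, and its log2 fold change was -0.98 (SE 0.13, adjusted p = 0.00132, same test).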

How the data were processed

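Per the paper's methods, the authors made count matrices from unstranded poly(A) libraries by running nf-core-rnaseq. The submitters' processing notes name STAR and GRCm39, and the annotation and the settings of the counter are not given in the sources used here. The authors deposited these counts without normalization, with a column for each mouse, and 0 value columns were unmatched to a sample. The fit to genotype used edgeR 4.0.16 in R 4.3.3 (TMM scaling, filterByExpr, estimateDisp, robust glmQLFit and glmQLFTest), with Benjamini-Hochberg adjustment across 12725 rows. Calls required an adjusted p under 0.05 and a log2 fold change beyond 0.5 in size, thresholds that the study's methods also use. CPM values are TMM-scaled and errors are SDs over 4 mice. *Gpx1*, *Gpx7* and *Gpx8* had 36 to 107 counts a library, and the SE of the log2 fold change ran from 0.13 for *Gpx4* to 0.28 for *Gpx1*. DESeq2 1.42.0 and pydeseq2 0.5.4 were alternatives. The ratio of *Gclc* to *Gclm* was taken on counts plus 0.5. All 10 genes, the called genes of each list (at most 5), the genes of the amino acid and breakdown lists with the smallest p among groups that do not overlap (at most 5), and the 3 rows nearest to each ligase subunit are named, with *Nox4* and *Nfe2l2* for reference. *Acss2*, *Gm17494*, *Cdc20b*, *Selenow*, *Selenot*, the marker genes, *Slc3a2*, *Slc1a1*, *Cth*, *Chac1* and the genes with few or 0 counts were named after their values were seen. The genes and lists were chosen with earlier results of these data known. Sequences and lengths come from GENCODE M21 and RefSeq on GRCm38, another build than that of the counts, and were matched by symbol.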

Additional observations from a re-analysis of the deposited data

Results flagged for a closer look

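In 2 of 24 groups of 4 libraries (the 10 genes, the *Gclc* to *Gclm* ratio and the library total, each in both genotypes), 1 library stood apart from the other 3 by Dixon's ratio of its gap to the range of the group. Chance alone gives about 1 in 20 such groups, or 1.2 of 24. For *Gclc* this was NOX4-deficient replicate 2, at 17.9 CPM where the others were at 13.3 to 13.8 CPM (ratio 0.905). For *Gclm* it was NOX4-deficient replicate 1, at 16.9 CPM where the others were at 18.9 to 19.2 CPM (ratio 0.886). Both lay below every control library. Without that library *Gclc* and *Gclm* were still called lower.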

How the results depend on the processing

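*Gclm* was called lower under all 20 alternatives (log2 fold change -1.41 to -1.15) and *Gclc* under 19 of 20 (-0.74 to -0.55). Dropping the minimum fold change, counted among the 20, can only add calls. The exception for *Gclc* was an adjusted p under 0.01. That rule left 1 of the 10 genes called, 2 lower and 0 higher genes of the lists, and 156 lower and 96 higher of all rows. *Gsr* was called under 6 of 20, namely DESeq2, pydeseq2, no filter (adjusted p = 0.0196), a term for odd and even replicates (0.0471), the replicate block (0.0361), and without control replicate 2. Leaving out 1 library gave 2 to 3 of the 10 genes lower and 0 higher, 2 to 4 genes of the lists lower and 0 to 1 higher, and 295 to 425 rows lower and 204 to 317 higher, fewest without control replicate 4. The cause was not tested. The log2 difference in the *Gclc* to *Gclm* ratio ranged from 0.55 to 0.75 with 1 library left out (exact permutation p = 0.0286 to 0.0571). *Gpx1* and *Gpx4*, neither of them called, changed sign: *Gpx1* to -0.11 without NOX4-deficient replicate 3 (highest 0.33, without replicate 4), and *Gpx4* (highest 0.10, without NOX4-deficient replicate 2) to -0.0024 with the odd and even term, -0.0026 with the block, -0.051 and -0.055 without NOX4-deficient replicates 1 and 3, and -0.0030 and -0.0076 without control replicates 2 and 4. Same-numbered samples correlated at 0.223, 0.147, 0.0410 and 0.0412 in their deviations, and of the 4 numbers only number 1 paired best with itself, so that the numbers do not pair the mice. As a replicate block they gave 3 lower genes of the 10, 543 lower and 390 higher of all rows, and a log2 ratio difference of 0.64 (exact permutation p = 0.125, the smallest for 4 pairs). The depth of *Gpx1*, *Gpx7* and *Gpx8*, at 36 to 107 counts a library, limits what can be said of them.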

Other observations

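*Gclm* and *Gsr* varied more among controls than among NOX4-deficient mice. Control replicate 4 was the highest of the controls for both, as it was for *Gclc*, *Txnrd1* and *Ahcy*. For *Dpep1*, also called lower, it was the lowest of the controls, at 13.5 CPM. How often it was highest over all rows was not counted. For *Gpx8* control replicate 4 was the lowest of all 8 libraries, at 1.87 CPM. Its total of 18997524 counts lay within the range of the other controls.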
